A study of Mus musculus with 27 samples.

Results

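The CXC chemokines are small secreted proteins that steer leukocytes, and 10 of them were followed here by their symbols in the deposited expression table: Cxcl1, Cxcl2, Cxcl3, Cxcl5, Cxcl9, Cxcl10, Cxcl11, Cxcl12, Cxcl14 and Cxcl16. They are 10 of 23995 genes in the table, and all 10 were among the 14668 genes with enough signal to be tested. RNA was sequenced from microglia, the macrophages of the brain, which had been shaken off mixed glial cultures of newborn mouse cortex. The mice were wild-type C57BL/6J or carried the label CB2-/-, strain B6.Cg-Cnr2tm1Zim, in which the gene of the cannabinoid receptor CB2 is disrupted. Each culture either received nothing or was given 1 of 3 stimuli for 16 h. These were LPS at 100 ng/ml together with interferon-γ at 20 ng/ml, CpG at 1 nmol/ml, and PolyI:C. LPS activates Toll-like receptor 4, PolyI:C imitates double-stranded RNA and is sensed by Toll-like receptor 3, and CpG DNA is a ligand of Toll-like receptor 9. The question was whether CB2 takes part in the response of microglia to such stimuli. Each of 9 groups held 3 libraries. Library numbers split the 27 libraries into 3012 to 3023 (unstimulated, LPS plus interferon-γ, PolyI:C and CpG, all wild type), 2048 to 2059 (the same 4 conditions labelled CB2-/-) and 2186 to 2188 (a further unstimulated wild-type group). The unstimulated wild-type groups are called series 3012 and series 2186 below and were kept apart. Wild-type responses were measured against series 3012, and unstimulated CB2-/- cells were compared with series 2186. The labels do not say whether 2186 to 2188 were prepared with 2048 to 2059, nor which animals or cultures the replicates derive from, and a p-value here reflects library-to-library spread, which may be technical. For stimulated cells, genotype and number series are the same split and cannot be told apart. The cultures are of newborn cells, and the mutation was present in every cell type of the mixed cultures from which the microglia were shaken.

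CXC chemokines bind G protein-coupled receptors and fall into groups by receptor. Cxcl1, Cxcl2, Cxcl3 and Cxcl5 are ligands of CXCR2 and draw neutrophils, and their transcription is typically driven by NF-κB downstream of Toll-like receptors. Cxcl9, Cxcl10 and Cxcl11 are ligands of CXCR3, draw activated T cells and natural killer cells, and are induced by interferons. Cxcl12, the ligand of CXCR4, is a largely constitutive product of stromal and other cells. Cxcl14 is made constitutively in several tissues, and Cxcl16 is a membrane-bound ligand of CXCR6 that can be released by the protease ADAM10.

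The CXCR2 ligand genes lie together on mouse chromosome 5 in GENCODE M21 on GRCm38, Cxcl5 at chr5:90759360-90761624, Cxcl3 at chr5:90786103-90789600, Cxcl1 at chr5:90891241-90893115 and Cxcl2 at chr5:90903871-90905938, all on the + strand. The CXCR3 ligand genes form a second cluster on the - strand of the same chromosome, Cxcl9 at chr5:92321347-92328079, Cxcl10 at chr5:92346638-92348889 and Cxcl11 at chr5:92359544-92365485. Cxcl12 lies at chr6:117168535-117181367 (+ strand), Cxcl14 at chr13:56288643-56296551 (- strand) and Cxcl16 at chr11:70453983-70459984 (- strand). The promoters are shown because orders of response to the stimuli differed between ligands in CB2-/- cells. There the largest estimate was with CpG for Cxcl1, Cxcl2 and Cxcl3, and with LPS plus interferon-γ for Cxcl5 and the CXCR3 ligands. No Cxcl3 change was called in CB2-/- cells. In wild type every CXCR2 and CXCR3 ligand had the same order by estimate, LPS plus interferon-γ, then PolyI:C, then CpG. RefSeq promoter sequences (GRCm38.p6, 250 bases before to 50 after the start) were matched for 7 of the 10 genes, and Cxcl5, Cxcl11 and Cxcl16 had no entry. Capitals mark matches, on either strand and merged where they overlap, to GGG and CC with any 5 bases between them (NF-κB), TTCNNNGAA (GAS, the interferon-γ-activated site) and GAAA, any 2 bases and GAAA (the interferon-stimulated response element, ISRE). The windows are chr5:90890995-90891294 (+) for Cxcl1, chr5:90903649-90903948 (+) for Cxcl2, chr5:90785851-90786150 (+) for Cxcl3, chr5:92328030-92328329 (-) for Cxcl9, chr5:92348840-92349139 (-) for Cxcl10, chr6:117168285-117168584 (+) for Cxcl12 and chr13:56296502-56296801 (-) for Cxcl14. Each is written 5′ to 3′ on the strand of its gene.
Cxcl1: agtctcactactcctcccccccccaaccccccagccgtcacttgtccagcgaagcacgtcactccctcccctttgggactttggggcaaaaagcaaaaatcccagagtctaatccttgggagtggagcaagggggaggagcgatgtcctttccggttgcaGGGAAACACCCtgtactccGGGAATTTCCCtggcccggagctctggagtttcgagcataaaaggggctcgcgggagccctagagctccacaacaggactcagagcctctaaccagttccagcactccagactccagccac
Cxcl2: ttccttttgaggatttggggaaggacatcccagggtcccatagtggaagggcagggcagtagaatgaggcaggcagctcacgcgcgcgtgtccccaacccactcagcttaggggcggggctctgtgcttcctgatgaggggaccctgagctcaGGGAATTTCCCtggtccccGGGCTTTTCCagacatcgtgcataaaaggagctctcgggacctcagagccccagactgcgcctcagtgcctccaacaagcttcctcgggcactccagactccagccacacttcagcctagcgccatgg
Cxcl3: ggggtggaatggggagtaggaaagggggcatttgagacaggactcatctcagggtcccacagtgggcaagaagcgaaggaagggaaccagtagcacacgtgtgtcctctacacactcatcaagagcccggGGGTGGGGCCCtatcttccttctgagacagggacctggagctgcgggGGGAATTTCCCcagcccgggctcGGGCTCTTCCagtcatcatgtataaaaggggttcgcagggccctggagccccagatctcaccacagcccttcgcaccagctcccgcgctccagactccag
Cxcl9: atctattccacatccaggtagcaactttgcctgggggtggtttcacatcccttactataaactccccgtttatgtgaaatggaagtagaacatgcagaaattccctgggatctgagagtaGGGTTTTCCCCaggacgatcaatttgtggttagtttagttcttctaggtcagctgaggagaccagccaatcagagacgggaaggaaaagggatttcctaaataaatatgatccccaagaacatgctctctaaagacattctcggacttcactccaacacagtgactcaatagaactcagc
Cxcl10: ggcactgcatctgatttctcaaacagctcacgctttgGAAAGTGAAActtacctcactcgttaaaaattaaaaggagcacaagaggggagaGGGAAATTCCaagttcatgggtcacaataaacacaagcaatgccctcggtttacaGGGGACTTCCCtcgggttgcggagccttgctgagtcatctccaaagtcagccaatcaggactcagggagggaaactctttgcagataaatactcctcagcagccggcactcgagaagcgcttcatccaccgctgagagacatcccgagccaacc
Cxcl12: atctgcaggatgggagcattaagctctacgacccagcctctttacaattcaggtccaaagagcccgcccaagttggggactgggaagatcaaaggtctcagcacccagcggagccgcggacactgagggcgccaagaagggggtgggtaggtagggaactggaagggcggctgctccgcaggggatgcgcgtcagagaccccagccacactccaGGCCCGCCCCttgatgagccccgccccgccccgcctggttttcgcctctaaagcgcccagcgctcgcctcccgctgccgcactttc
Cxcl14: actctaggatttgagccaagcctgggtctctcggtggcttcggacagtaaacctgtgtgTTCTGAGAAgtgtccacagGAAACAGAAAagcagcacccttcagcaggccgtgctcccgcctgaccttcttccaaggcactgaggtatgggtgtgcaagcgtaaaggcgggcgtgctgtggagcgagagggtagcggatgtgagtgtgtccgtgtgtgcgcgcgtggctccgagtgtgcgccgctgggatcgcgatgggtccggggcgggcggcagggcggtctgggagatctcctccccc

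Of all 32851 promoters in the table, 50.8% held an NF-κB match, 8.30% held TTCNNNGAA and 3.44% held an ISRE match. Each of the 3 CXCR2 ligand promoters held the spelling GGGAATTTCC, with its first base 71 bases before the start in Cxcl1, 97 in Cxcl2 and 73 in Cxcl3. That spelling, chosen after the matches were seen, occurred on either strand in 29 promoters, or 0.0883% of the table. Cxcl10 held the NF-κB match GGGAAATTCC 159 bases and GGGACTTCCC 103 bases before the start, and the ISRE match GAAAGTGAAA 213 bases before it. Cxcl9 held GGGTTTTCCC 130 bases before the start and neither GAS nor ISRE letters in this window. Cxcl14 was the member without an NF-κB match among the 7, and it held TTCTGAGAA 191 bases and GAAACAGAAA 172 bases before the start. A match describes letters only, and no binding was measured.

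Values are the authors' normalised counts, and counts divided by a library factor alone do not describe them. In units of a library's smallest recurring step, low values recurred at steps that differed by gene, such as 1.005 for Cxcl5 and 1.074 for Cxcl11. Whole reads could not be recovered from the normalised counts. If the smallest recurring step is taken as 1 read, libraries held about 2.50 to 36.7 M reads. Summed normalised counts ran from 6.34 to 14.15 M per library, and 13628 to 20643 genes were above 0. All 9 microglial marker genes were above 0 in every library. Their summed normalised counts were 74905 to 83569.5 in unstimulated series 3012 and, in the order LPS plus interferon-γ, PolyI:C and CpG, 33995 to 35307, 34951 to 47875 and 44792 to 53406 in stimulated wild type. With the CB2-/- label they were 45593 to 48389.6 unstimulated and 22759.6 to 24500.3, 35622 to 37611 and 25658 to 26419 stimulated, and in series 2186 48348 to 65104. The summed counts of 4 neutrophil markers were 5.47 to 21.9 in unstimulated series 3012 and 61.7 to 73.4, 215 to 340.3 and 285 to 397 in stimulated wild type in the same order. Libraries labelled CB2-/- held 19.6 to 72.03. In wild type these sums came from S100a8 and Camp, with S100a9 and Ngp at 0 in all 15 libraries. The part of either marker list in the chemokine results was not tested. In the libraries numbered 2048 to 2188, the genes Gm19220, Gm26822 and Grip2 took 0.0741 to 50.8% of the counts, against at most 0.00453% in 3012 to 3023. The targeted gene Cnr2 was detected in all 12 libraries labelled CB2-/-, at 217 to 454 normalised counts, against 172 to 233 in unstimulated and 0 to 21.96 in stimulated wild-type libraries. A gene-level count does not show which part of Cnr2 the reads came from, so it does not check the genotype, and libraries are named by their label. In bulk RNA, fewer cells of a type and less RNA per cell cannot be told apart.

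Changes are differences in log2(normalised count + 1) ± SE from a limma model of all 27 libraries, and a gene was called at a Benjamini-Hochberg adjusted p under 0.05 over all 14668 genes. In wild-type cells LPS plus interferon-γ raised 8 of the 10 chemokines and lowered 1, where 39.7% of all genes were called, with a median change of 4.77 for the chemokines against 0.05 for all genes. PolyI:C raised 7 and lowered 1 (41.1% of all genes called), with medians of 3.42 and -0.06. CpG raised 5 and lowered 2 (36.0% called), with medians of 1.68 and -0.09. In cells labelled CB2-/-, LPS plus interferon-γ raised 7 and lowered 1 (23.7% called), with medians of 2.63 and 0.03. PolyI:C raised 4 and lowered none (8.55% called), with medians of 0.98 and 0.01. CpG raised 3 and lowered 1 (14.3% called), with medians of 0.63 and 0. The share of all genes called was thus higher in each wild-type comparison than in its CB2-/- counterpart, and the counts are read against it.

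**Figure D1:**
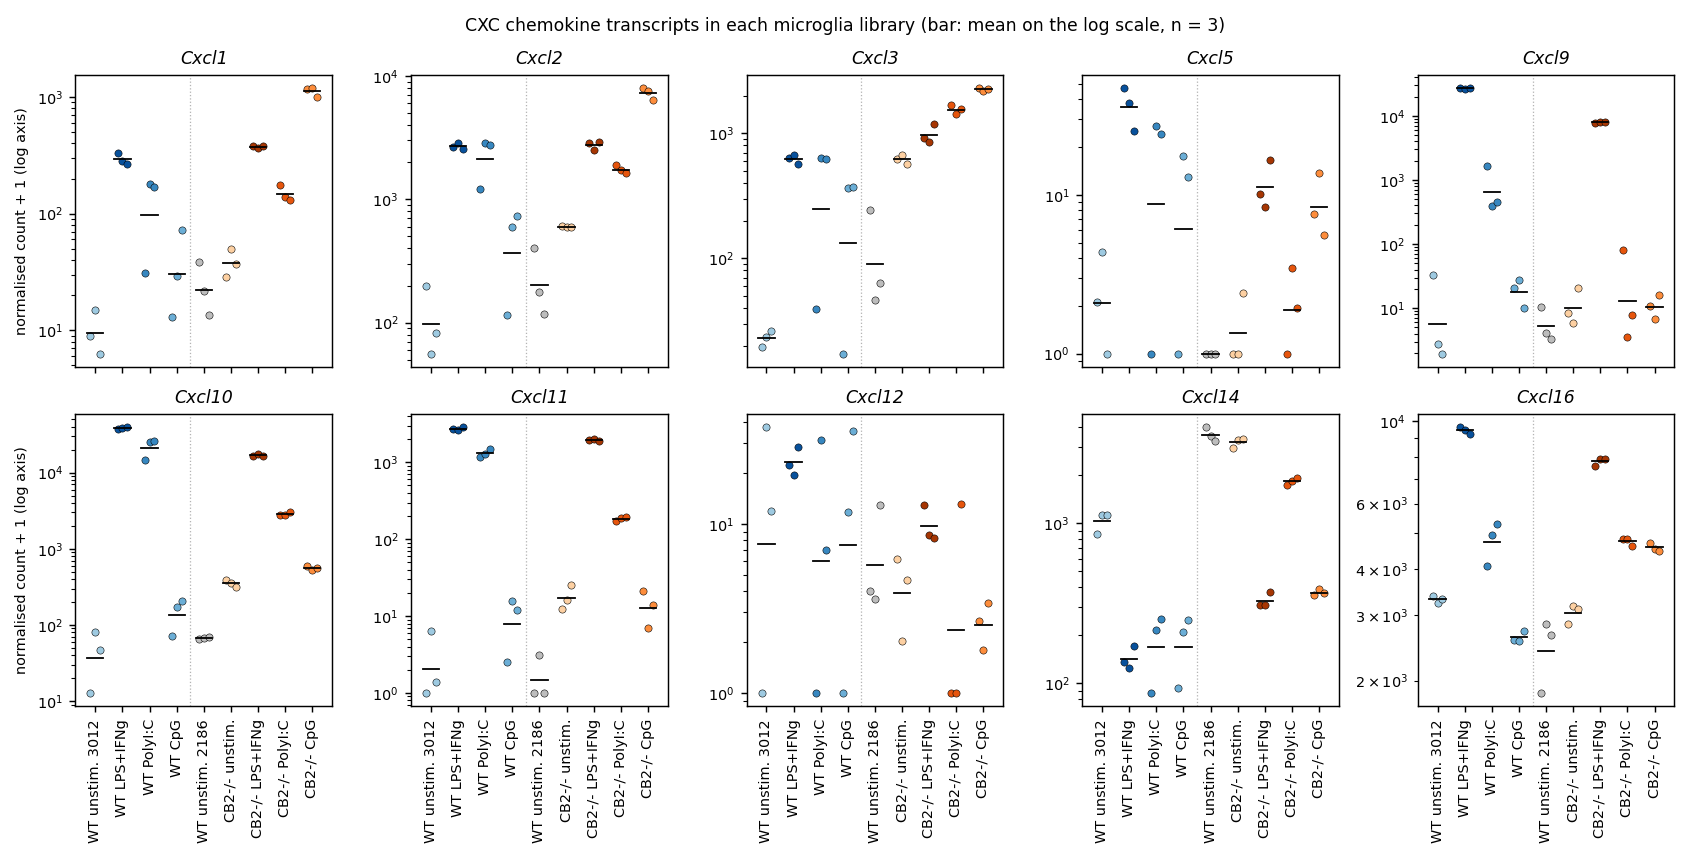
Normalised count + 1 of each chemokine (log axis) in each of the 27 libraries, by group, with a bar at the mean on the log scale of 3 libraries; the dotted line separates libraries 3012 to 3023 from the others. Cxcl1, Cxcl2 and Cxcl3 are highest in CB2-/- cells given CpG, while Cxcl9, Cxcl10 and Cxcl11 are highest in wild-type cells given LPS plus interferon-γ.

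Among the CXCR2 ligands, Cxcl1 and Cxcl2 rose after LPS plus interferon-γ in wild type and in cells labelled CB2-/-, and their highest levels were in CB2-/- cells given CpG. Cxcl1, a main neutrophil attractant of the mouse, was at 7.85, 13.8 and 5.30 normalised counts in unstimulated wild type of series 3012, at 327, 280.3 and 268 after LPS plus interferon-γ, at 29.7, 180.2 and 166 after PolyI:C and at 11.9, 28.2 and 71.2 after CpG. In libraries labelled CB2-/- it was at 27.8, 48.3 and 35.9 unstimulated, 383, 365 and 376 after LPS plus interferon-γ, 177, 137 and 129.5 after PolyI:C and 1163, 1198 and 1004 after CpG, and in series 2186 at 37.1, 20.6 and 12.5. After LPS plus interferon-γ every library lay above every unstimulated library of its genotype, whereas the wild-type CpG libraries overlapped with the unstimulated ones. In wild type Cxcl1 changed by 4.96 ± 0.55 with LPS plus interferon-γ (limma adjusted p = 6.75e-08), by 3.38 ± 0.55 with PolyI:C (2.01e-05) and by 1.68 ± 0.55 with CpG (0.0191). With the CB2-/- label the changes were 3.33 ± 0.55 (adjusted p = 5.07e-05), 1.98 ± 0.55 (0.0242) and 4.90 ± 0.55 (3.39e-07). By estimate CpG was therefore the weakest stimulus for Cxcl1 in wild type and the strongest in CB2-/- cells. LPS plus interferon-γ against CpG was not called for it in CB2-/- cells (-1.58 ± 0.55, adjusted p = 0.0744). The PolyI:C call in CB2-/- cells was lost without unstimulated replicate 1 or 3 or PolyI:C replicate 1 or 2 (1.79 to 2.02).

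Cxcl2, which shares CXCR2 with Cxcl1, was at 197, 55.2 and 82.2 normalised counts in unstimulated wild type of series 3012, at 2651, 2836 and 2573 after LPS plus interferon-γ, at 1209, 2842 and 2735 after PolyI:C and at 114, 593 and 737 after CpG. With the CB2-/- label it was at 601, 597 and 595 unstimulated, 2833, 2526 and 2900.2 after LPS plus interferon-γ, 1884, 1716 and 1625 after PolyI:C and 8000.1, 7583 and 6433 after CpG, and in series 2186 at 399, 177 and 116. The LPS plus interferon-γ libraries of both labels overlapped, while unstimulated CB2-/- libraries lay above all 6 unstimulated wild-type libraries. Cxcl2 rose in wild type by 4.78 ± 0.51 with LPS plus interferon-γ (adjusted p = 3.01e-08), 4.44 ± 0.51 with PolyI:C (1.03e-07) and 1.92 ± 0.51 with CpG (0.00422), the last with overlapping groups. In CB2-/- cells it rose by 2.20 ± 0.51 with LPS plus interferon-γ (0.00194) and by 3.61 ± 0.51 with CpG (9.2e-06), and the PolyI:C change of 1.54 ± 0.51 was not called (0.0608) although the groups did not overlap.

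Cxcl3, the third of these paralogues, was at 18.6, 22.3 and 25.2 normalised counts in unstimulated wild type of series 3012, 631, 666 and 564 after LPS plus interferon-γ, 38.5, 636 and 622 after PolyI:C and 16.3, 367 and 374 after CpG. Unstimulated libraries labelled CB2-/- already held 622, 675 and 566, with 919, 852 and 1186 after LPS plus interferon-γ, 1689.8, 1413 and 1548 after PolyI:C and 2306, 2187 and 2263 after CpG, and series 2186 held 245, 45.05 and 62.2. The range of unstimulated CB2-/- libraries overlapped with that of wild-type libraries given LPS plus interferon-γ. Cxcl3 rose in wild type by 4.76 ± 0.89 (adjusted p = 0.000118), 3.45 ± 0.89 (0.00289) and 2.55 ± 0.89 (0.0278) with LPS plus interferon-γ, PolyI:C and CpG. No change was called in CB2-/- cells, where the estimates were 0.65 ± 0.89, 1.32 ± 0.89 and 1.86 ± 0.89 (adjusted p = 0.688, 0.449 and 0.202), although none of the stimulated groups overlapped with the unstimulated one. A fit of the compared groups alone called all 3 of these (adjusted p = 0.00855, 0.000709 and 6.19e-06). Cxcl1, Cxcl2 and Cxcl3 are close in sequence, so reads may have been divided between them and their separate values are uncertain to that extent.

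Cxcl5 was the scarcest CXCR2 ligand, at 0 to 3.38 normalised counts in unstimulated libraries of series 3012, 0 in all 3 of series 2186 and 0 to 1.41 with the CB2-/- label. LPS plus interferon-γ brought it to 46.2, 36.7 and 24.4 in wild type and 9.08, 7.36 and 15.6 in CB2-/- libraries. It rose by 4.09 ± 1.05 in wild type (adjusted p = 0.00297) and by 3.06 ± 1.05 in CB2-/- cells (0.0359), a call lost on leaving out any of 5 of its 6 libraries, all but unstimulated replicate 3. With PolyI:C it was at 0, 26.1 and 23.3 in wild type (2.06 ± 1.05, adjusted p = 0.126), and without replicate 1 that change was called at 3.62. With CpG it was at 0, 16.6 and 12.03 in wild type and 6.58, 12.8 and 4.61 in CB2-/- libraries. Neither change was called (1.55 ± 1.05 and 2.64 ± 1.05), but without CpG replicate 1 the wild-type change was called at 2.85 (adjusted p = 0.034).

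Replicate 1 of wild-type PolyI:C and of wild-type CpG held less of Cxcl1, Cxcl2, Cxcl3 and Cxcl5 than the other replicates of its group, and these libraries were also low in markers of other glial culture cells. The summed normalised counts of 8 astrocyte markers were 205, 979.9 and 332 in unstimulated series 3012, 50.7, 489 and 572 after PolyI:C and 100.1, 862 and 1336 after CpG. The sums of 6 fibroblast and meningeal markers were 13.4, 2891 and 381, 50.4, 905 and 789 and 12.1, 1232 and 2111 in the same order. Replicate 1 was lowest in each of these groups, with Aqp4 and S100b at 0 in all 3 of these libraries, and Lum at 0 in them and in unstimulated replicate 3. The other wild-type groups held 657 to 844 (LPS plus interferon-γ) and 1498 to 2613 (series 2186) for astrocytes, and 527 to 821 and 691 to 2475 for fibroblasts. Libraries labelled CB2-/- held 164 to 347 and 27.4 to 95.3. Replicate 1 of wild-type PolyI:C and of wild-type CpG was also lowest of its group for Cxcl10, Cxcl11 and Cxcl14. For Cxcl9 it was highest after PolyI:C (1647 against 388 and 446). Unstimulated replicate 1 held the most Cxcl2 of its group (197 against 55.2 and 82.2) and the least Cxcl3 (18.6 against 22.3 and 25.2). The part of these cells in the chemokine values was not tested. Without the 3 replicates 1 the wild-type PolyI:C changes were 4.17 for Cxcl1, 5.35 for Cxcl2 and 4.67 for Cxcl3, and the CpG changes 2.25, 3.28 and 3.91. Several CpG calls rested on single libraries. Cxcl1 lost its call without unstimulated replicate 1 or 3 or CpG replicate 3 (1.05 without the last). Cxcl3 lost it without any unstimulated library or CpG replicate 2 or 3 and reached 4.02 without CpG replicate 1.

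The CXCR3 ligands Cxcl9, Cxcl10 and Cxcl11 gave the largest increases of the family after LPS plus interferon-γ under both labels, and after PolyI:C in wild type, while every CpG change among them was below 2 on the log2 scale with all libraries in the fit. Cxcl10, known as IP-10, was at 11.8, 80.99 and 45.7 normalised counts in unstimulated wild type of series 3012, 36986, 38479 and 39416 after LPS plus interferon-γ, 14555, 25442 and 26140.4 after PolyI:C and 70.2, 169.9 and 206 after CpG. In libraries labelled CB2-/- it was at 389, 354 and 319 unstimulated, 16719.6, 17304 and 16421 after LPS plus interferon-γ, 2736, 2797 and 3019 after PolyI:C and 599, 527 and 558 after CpG, and in series 2186 at 64.6, 67.1 and 69.2. The CB2-/- libraries started above and ended below wild type for LPS plus interferon-γ and PolyI:C, with no overlap at either end. Cxcl10 rose in wild type by 10.03 ± 0.41 with LPS plus interferon-γ (adjusted p = 9.5e-16), 9.18 ± 0.41 with PolyI:C (4.61e-15) and 1.89 ± 0.41 with CpG (0.000692). On this scale these are 1045-fold, 582-fold and 3.72-fold. The CpG groups overlapped, and that change was 1.14 without unstimulated replicate 1. In CB2-/- cells it rose by 5.57 ± 0.41 with LPS plus interferon-γ (adjusted p = 1.7e-10) and 3.01 ± 0.41 with PolyI:C (2.35e-05), and the CpG change of 0.67 ± 0.41 was not called (0.366).

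Cxcl9, known as MIG and classically an interferon-γ target, was at 32.01, 1.73 and 0.947 normalised counts in unstimulated wild type of series 3012, 27510.3, 26728 and 27450.5 after LPS plus interferon-γ, 1647, 388 and 446 after PolyI:C and 19.4, 26.8 and 9.18 after CpG. With the CB2-/- label it was at 7.29, 4.76 and 19.8 unstimulated, 7727, 7982 and 8169 after LPS plus interferon-γ, 81.1, 2.50 and 6.87 after PolyI:C and 9.87, 5.84 and 14.8 after CpG, and in series 2186 at 9.54, 3.09 and 2.27. Both labels were far above their unstimulated libraries with LPS plus interferon-γ, the stimulus that held interferon-γ, and after PolyI:C the wild-type libraries lay above every unstimulated library while the CB2-/- libraries overlapped with unstimulated ones. Cxcl9 rose by 12.25 ± 0.93 with LPS plus interferon-γ (adjusted p = 9.4e-11) and 6.88 ± 0.93 with PolyI:C (1.46e-06) in wild type, and by 9.64 ± 0.93 with LPS plus interferon-γ in CB2-/- cells (1.62e-08). Its PolyI:C change in CB2-/- cells was 0.40 ± 0.93 (0.87) and its CpG changes were 1.68 ± 0.93 in wild type (0.171) and 0.08 ± 0.93 in CB2-/- cells (0.979). Without unstimulated wild-type replicate 1, the highest of that group, the wild-type CpG change was 2.96 and was called.

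Cxcl11, known as I-TAC, is listed as a polymorphic pseudogene, and C57BL/6 mice are known to carry a frameshift in it, so the transcript need not give a working protein. It was at 0, 5.42 and 0.396 normalised counts in unstimulated wild type of series 3012, 2723, 2617 and 2859 after LPS plus interferon-γ, 1181, 1285 and 1506 after PolyI:C and 1.56, 14.7 and 10.8 after CpG. In libraries labelled CB2-/- it was at 11.2, 14.96 and 24.04, 1963, 1992 and 1891, 170.4, 188 and 195 and 20.1, 5.95 and 12.8 in the same order, and in series 2186 at 0, 2.16 and 0. Unstimulated wild-type libraries were at or near 0, and libraries of both labels were highest after LPS plus interferon-γ. Cxcl11 rose by 10.36 ± 0.62 (adjusted p = 1.08e-12) and 9.31 ± 0.62 (7.49e-12) in wild type with LPS plus interferon-γ and PolyI:C, and by 6.84 ± 0.62 (5.19e-09) and 3.45 ± 0.62 (0.000604) in CB2-/- cells. The wild-type CpG change of 1.91 ± 0.62 (0.0176) joined overlapping groups at few counts and was not called without unstimulated replicate 1 or 3 or CpG replicate 2 or 3. The CpG change in CB2-/- cells was -0.42 ± 0.62 (0.777).

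**Figure D2:**
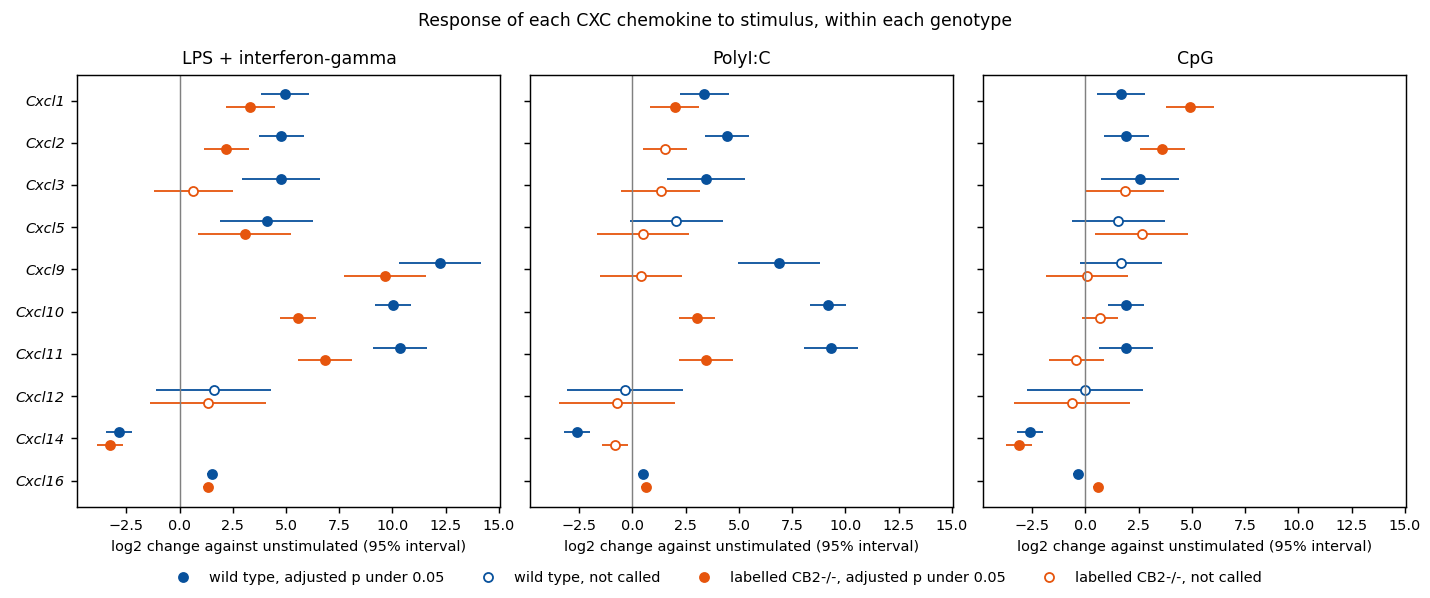
Log2 change of each chemokine against unstimulated cells of its own label (points, with 95% intervals from the limma model) for the 3 stimuli, wild type and CB2-/- side by side; filled points passed an adjusted p of 0.05. The CXCR3 ligands stand farthest to the right with LPS plus interferon-γ and Cxcl14 is left of 0 throughout; Cxcl16 in wild type given PolyI:C, at 0.51, turned to -0.39 under quantile scaling.

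Cxcl16, the transmembrane ligand of CXCR6, was abundant in every group. It was at 3377, 3237 and 3327 normalised counts in unstimulated wild type of series 3012, 9637, 9478 and 9233 after LPS plus interferon-γ, 4070.0, 4926 and 5274 after PolyI:C and 2579, 2553 and 2712 after CpG. With the CB2-/- label it was at 2841, 3182 and 3126 unstimulated, 7591, 7934 and 7934 after LPS plus interferon-γ, 4810.4, 4819 and 4612 after PolyI:C and 4706, 4533 and 4477 after CpG, and in series 2186 at 1851, 2844 and 2653. CpG libraries lay below unstimulated ones in wild type and above them in CB2-/- cells, in each case without overlap. Cxcl16 rose with LPS plus interferon-γ by 1.51 ± 0.11 in wild type (adjusted p = 7.71e-11) and 1.36 ± 0.11 in CB2-/- cells (1.43e-09). With CpG it fell in wild type, with a change of -0.34 ± 0.11 (0.0208), and rose in CB2-/- cells by 0.59 ± 0.11 (0.00057). The wild-type CpG call was lost without unstimulated replicate 1 or 3 or CpG replicate 2, without the 3 replicates 1 (-0.32) and with all 6 unstimulated wild-type libraries as 1 group (-0.11). It was -0.66 under quantile scaling, and the unstimulated wild-type series differed by -0.46 ± 0.11. With PolyI:C the change in wild type was 0.51 ± 0.11 (0.000699), which turned to -0.39 under quantile scaling, and the rise in CB2-/- cells was 0.64 ± 0.11 (0.000567). Quantile scaling also lowered the LPS plus interferon-γ change to 0.53 in wild type and 0.77 in CB2-/- cells.

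Cxcl14 fell with every stimulus in wild type and with 2 of 3 in CB2-/- cells, whereas the other members mostly rose. It was at 860.4, 1129 and 1127 normalised counts in unstimulated wild type of series 3012, 136, 124 and 170.4 after LPS plus interferon-γ, 86.2, 214 and 250.4 after PolyI:C and 92.4, 207 and 246 after CpG. Unstimulated libraries held more in series 2186, 3974, 3479.7 and 3244, and with the CB2-/- label, 2928, 3329 and 3369.7, and the latter were followed by 309, 306 and 372 after LPS plus interferon-γ, 1734, 1846 and 1912 after PolyI:C and 354, 385 and 364 after CpG. Every stimulated library lay below every unstimulated library of its own comparison, and PolyI:C left CB2-/- libraries above the unstimulated wild type of series 3012. Cxcl14 changed in wild type by -2.85 ± 0.29 (adjusted p = 2.03e-08), -2.62 ± 0.29 (8.15e-08) and -2.61 ± 0.29 (1.38e-07) with LPS plus interferon-γ, PolyI:C and CpG. In CB2-/- cells it changed by -3.28 ± 0.29 (4.81e-09) with LPS plus interferon-γ and -3.12 ± 0.29 (2.16e-08) with CpG. The PolyI:C change there, -0.81 ± 0.29, was not called (0.0966).

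Cxcl12 was scarce, at 0 to 36.4 normalised counts over all 27 libraries, and was called in none of the comparisons in the model of all libraries. In wild type of libraries 3012 to 3023 it was at 0 in replicate 1 of 3 groups (unstimulated, CpG and PolyI:C), the libraries low in astrocyte and fibroblast markers. In the other replicates it was at 10.97 and 36.4 unstimulated, 6.02 and 30.3 after PolyI:C and 10.7 and 34.6 after CpG. The part of those cells in the Cxcl12 values was not tested. Against unstimulated cells its estimates ran from -0.72 (PolyI:C, CB2-/-) to 1.60 (LPS plus interferon-γ, wild type), each with an SE of 1.32. LPS plus interferon-γ against CpG in CB2-/- cells gave 1.94 ± 1.32 (adjusted p = 0.493), which was called under array weights (1.98, 0.0497) and with only the groups compared (0.0203).

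Levels of different genes were compared as normalised counts per kb of the longest GENCODE transcript, as mean ± SD of 3 libraries. For Cxcl1, Cxcl2, Cxcl3 and Cxcl10 that transcript (1871, 2066, 3498 and 2230 bases) covered nearly the whole gene, introns included. For Cxcl9 and Cxcl16 it was 2889 and 2699 bases, well short of the gene. Levels of the former genes may thus be understated beside Cxcl9 and Cxcl16, and the orders below depend on the length used. In unstimulated wild type of series 3012 Cxcl16 was highest at 1228 ± 26.2, followed by Cxcl14 at 569 ± 84.6 and Cxcl2 at 53.99 ± 36.5, and Cxcl10 and the rest lay lower. Cxcl14 led in series 2186 at 1952 ± 204 and in unstimulated CB2-/- cells at 1756 ± 133, with Cxcl16 next at 907 ± 195 and 1130.0 ± 67.7. Resting cells of each group thus carried mainly Cxcl14 and Cxcl16. After LPS plus interferon-γ the order in wild type was Cxcl10 (17172 ± 549.7), Cxcl9 (9425 ± 151), Cxcl16 (3501 ± 75.4), Cxcl2 (1300.5 ± 65.5) and Cxcl11 (720.3 ± 32.1), with gaps larger than the SDs, and then Cxcl3 (177 ± 14.8) and Cxcl1 (156 ± 16.8), which differed by little more than 1 SD. CB2-/- cells given LPS plus interferon-γ carried Cxcl10 at 7540.3 ± 201, then Cxcl16 at 2897 ± 73.4 and Cxcl9 at 2755 ± 76.8, the latter pair within about 2 SDs of each other. After PolyI:C Cxcl10 led in wild type at 9886 ± 2913, whereas Cxcl16 led in CB2-/- cells at 1759 ± 43.5, ahead of Cxcl10 at 1278 ± 66.7. After CpG Cxcl16 led in wild type at 969 ± 31.6, and Cxcl2 in CB2-/- cells at 3552 ± 393, ahead of Cxcl16 at 1694 ± 44.3. In that group Cxcl3 and Cxcl1 followed at 644 ± 17.2 and 599.6 ± 55.3, which differed by less than 1 SD of Cxcl1.

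Summed over its members, each receptor group gave a different order of conditions. The 4 CXCR2 ligands together held 94.7 to 225 normalised counts in unstimulated wild type of series 3012 and 191 to 681 in series 2186. They held 3429.5 to 3819.6 after LPS plus interferon-γ, 1277 to 3684 after PolyI:C and 142 to 1194 after CpG. In CB2-/- libraries the CXCR2 ligand sum was 1199 to 1320.1 unstimulated, 3751 to 4477 after LPS plus interferon-γ, 3268 to 3750.3 after PolyI:C and 9705 to 11476 after CpG. The CXCR2 ligand sum was thus highest in CB2-/- cells given CpG, above all other libraries. The 3 CXCR3 ligands held 43.8 to 88.1 in series 3012, 71.4 to 74.1 in series 2186, 67219 to 69726 after LPS plus interferon-γ, 17383 to 28092 after PolyI:C and 91.2 to 226 after CpG. In CB2-/- libraries their sum was 363 to 408, 26410.0 to 27278, 2988 to 3221 and 538 to 629 in the order unstimulated, LPS plus interferon-γ, PolyI:C and CpG. The CXCR3 ligand sum was highest in wild-type cells given LPS plus interferon-γ, and CB2-/- cells given PolyI:C lay below every wild-type library given PolyI:C.

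**Figure D3:**
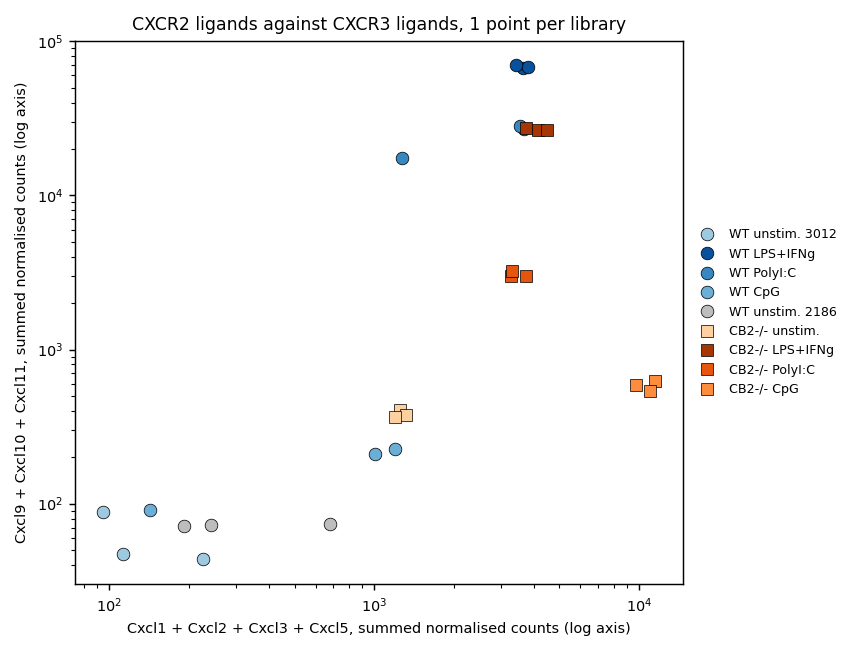
Summed normalised counts of Cxcl1, Cxcl2, Cxcl3 and Cxcl5 (x axis, log) against those of Cxcl9, Cxcl10 and Cxcl11 (y axis, log), 1 point per library, circles wild type and squares CB2-/-. CB2-/- libraries given CpG lie farthest right, at 9705 to 11476, and wild-type libraries given LPS plus interferon-γ highest, at 67219 to 69726; wild-type replicate 1 lies left of its group after PolyI:C and CpG.

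Differences between the responses (CB2-/- minus wild type, each against its own unstimulated cells) were tested as a contrast of the same model. After LPS plus interferon-γ 4 chemokines were called, all with the lower log2 change in CB2-/- cells, where 8.36% of all genes were called in that direction. Cxcl10 differed by -4.46 ± 0.58 (adjusted p = 7.3e-06), Cxcl11 by -3.52 ± 0.87 (0.00791), Cxcl3 by -4.11 ± 1.26 (0.0321) and Cxcl2 by -2.58 ± 0.71 (0.0171). The levels before and after stimulation behind these differences varied by gene. Cxcl2 ended at 2687 ± 135 (SD, n = 3) normalised counts in wild type and 2753 ± 199 in CB2-/- cells, from starts of 112 ± 75.4 and 598 ± 3.14. Cxcl3 ended higher in CB2-/- cells, at 986 ± 176 against 620.4 ± 51.9, from starts of 621 ± 54.5 and 22.1 ± 3.29. Cxcl10 ended lower, at 16815 ± 449 against 38294 ± 1226, from starts of 354 ± 35.3 and 46.2 ± 34.6. The levels after stimulation lie in different number series and were not tested against each other. The Cxcl2 difference was not called without unstimulated wild-type replicate 2 (-2.19) or with all 6 unstimulated wild-type libraries as 1 group (-2.06). The Cxcl3 difference was not called in that setting either (-3.12), nor on leaving out any of 10 of its 12 libraries, all but unstimulated wild-type replicate 2 and CB2-/- LPS plus interferon-γ replicate 3. Its size hardly moved over these 12, from -4.25 to -3.99, with adjusted p from 0.0481 to 0.067. Cxcl9 ended at 7959 ± 222 against 27229.7 ± 435, and its difference of -2.61 ± 1.31 (95% interval -5.33 to 0.11) was not called (0.23). It was -3.89 and called without unstimulated wild-type replicate 1.

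After PolyI:C 5 chemokines differed between the responses, where 10.8% of all genes were called higher and 13.9% lower in CB2-/- cells. All 3 CXCR3 ligands had the smaller response in CB2-/- cells, with differences of -6.48 ± 1.31 for Cxcl9 (adjusted p = 0.000618), -6.18 ± 0.58 for Cxcl10 (2.01e-08) and -5.86 ± 0.87 for Cxcl11 (1.66e-05). These 3 calls held on leaving out each library in turn. Cxcl10 ended at 2851 ± 149 (SD, n = 3) normalised counts in CB2-/- cells and 22046 ± 6497 in wild type. Cxcl2 also had the smaller response there, with a difference of -2.90 ± 0.71 (0.00375). Its starts were 598 ± 3.14 in CB2-/- cells and 112 ± 75.4 in wild type. Its ends were 1742 ± 131 and 2262 ± 914, with overlapping libraries. Cxcl14 differed the other way, by 1.81 ± 0.42 (0.002), with changes of -0.81 in CB2-/- cells and -2.62 in wild type. Cxcl1 and Cxcl3 were not called, at -1.40 ± 0.78 (interval -3.01 to 0.21) and -2.13 ± 1.26 (-4.73 to 0.47), but were at -2.24 and -3.46 and called without wild-type PolyI:C replicate 1. Cxcl16 gave 0.13 ± 0.16 (interval -0.21 to 0.46), which was called at 0.87 under quantile scaling.

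After CpG 2 chemokines differed, both with the higher log2 change in CB2-/- cells, where 6.11% of all genes were called in that direction. Cxcl1 differed by 3.22 ± 0.78 (adjusted p = 0.00726) and Cxcl16 by 0.93 ± 0.16 (0.000358). Cxcl16 fell in wild type (-0.34) and rose in CB2-/- cells (0.59), so its responses went in opposite directions. Cxcl1 ended at 1122 ± 104 (SD, n = 3) normalised counts in CB2-/- cells and 37.1 ± 30.6 in wild type. Cxcl2 ended at 7339 ± 812 against 481 ± 326, and its difference of 1.69 ± 0.71 (interval 0.21 to 3.17) was not called (0.134) except without wild-type CpG replicate 3 (2.19) among the libraries left out. Cxcl10 and Cxcl11 had estimates of -1.23 ± 0.58 and -2.34 ± 0.87, and were called without unstimulated wild-type replicate 2 (-1.81 and -3.15) or CpG replicate 1 (-1.70 and -3.14). With the 3 wild-type replicates 1 removed, the Cxcl1 difference was 2.65 and the Cxcl16 difference 0.90.

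**Figure D4:**
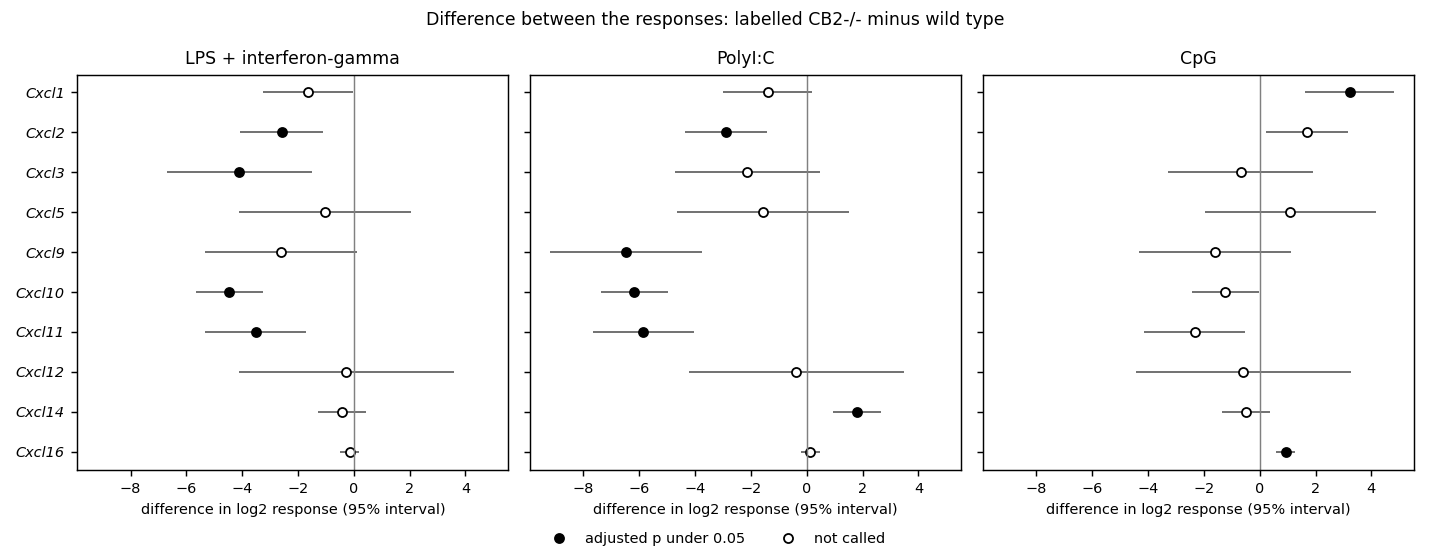
Difference in log2 response, CB2-/- minus wild type, for each chemokine and stimulus (points, with 95% intervals); filled points passed an adjusted p of 0.05. Cxcl10 lies at -4.46 with LPS plus interferon-γ and -6.18 with PolyI:C, while Cxcl1 lies at 3.22 with CpG.

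Before stimulation, 3 chemokines were higher in cells labelled CB2-/- than in wild type of series 2186, and none were lower, where 6.25% of all genes were called higher. Cxcl10 was higher by 2.38 ± 0.41 (adjusted p = 0.000343), at 354 ± 35.3 (SD, n = 3) against 66.9 ± 2.30 normalised counts. Cxcl11 was higher by 3.53 ± 0.62 (0.000422), at 16.7 ± 6.59 against 0.719 ± 1.24. Cxcl3 was higher by 2.80 ± 0.89 (0.0475), at 621 ± 54.5 against 117 ± 111, a call lost on leaving out any of 5 of the 6 libraries, all but wild-type replicate 1. Cxcl2, at 1.56 ± 0.51 (0.0516), was called without wild-type replicate 1 (2.05), and Cxcl16, at 0.34 ± 0.11 (0.0591), without wild-type replicate 2 (0.46). The summed astrocyte markers were 1498, 2613 and 1961 in series 2186 and 189, 286 and 299 in unstimulated CB2-/- libraries, and their part in these differences was not tested. Between the unstimulated wild-type series, which share genotype and treatment, 2 chemokines differed (6.33% of all genes called higher and 5.66% lower in series 2186). Cxcl14 was higher in series 2186 by 1.78 ± 0.29 (0.000166) and Cxcl16 lower, with a difference of -0.46 ± 0.11 (0.00775), or -0.27 without series 2186 replicate 1. The Cxcl14 difference between the CB2-/- label and series 2186 was -0.15 ± 0.29 (0.815). In the authors' batch-corrected table the series difference of Cxcl14 was 0.49 and not called, and its genotype difference was 0.62 and called.

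Stimuli were also compared directly within a label. In wild type LPS plus interferon-γ gave more of 2 chemokines than PolyI:C (5.35% of all genes called higher), Cxcl9 by 5.37 ± 0.93 (adjusted p = 0.000312) and Cxcl16 by 1.00 ± 0.11 (1.28e-06), while Cxcl10 differed by 0.84 ± 0.41 (0.241). LPS plus interferon-γ gave more of 6 than CpG (19.7% called higher), Cxcl1, Cxcl2, Cxcl9, Cxcl10, Cxcl11 and Cxcl16, by 1.85 (Cxcl16) to 10.57 (Cxcl9). PolyI:C gave more of the same 6 than CpG (17.6% called higher), by 0.85 (Cxcl16) to 7.40 (Cxcl11). In that comparison the Cxcl1 groups overlapped, and its call was lost without PolyI:C replicate 2 or 3 or CpG replicate 1 or 2 (1.09 without CpG replicate 1), where Cxcl2 was at 1.67 instead of 2.52. In CB2-/- cells LPS plus interferon-γ gave more than PolyI:C of Cxcl9, Cxcl10, Cxcl11 and Cxcl16, by 0.72 (Cxcl16) to 9.24 (Cxcl9), and less of Cxcl14 (-2.48 ± 0.29), with 6.95% of all genes called higher and 4.96% lower. It gave more than CpG of the same 4, by 0.77 (Cxcl16) to 9.56 (Cxcl9), with 6.36% called higher. Under quantile scaling the Cxcl16 calls of both comparisons were lost, at 0.29 against PolyI:C (adjusted p = 0.0625) and 0.29 against CpG (0.064). Cxcl1 and Cxcl2 were lower with LPS plus interferon-γ than with CpG by estimate, without overlap, but were not called. Their differences were -1.58 ± 0.55 (adjusted p = 0.0744) and -1.41 ± 0.51 (0.0849). PolyI:C against CpG split the family (6.39% called higher and 5.56% lower with PolyI:C). Cxcl1 (-2.93 ± 0.55, adjusted p = 0.000582) and Cxcl2 (-2.07 ± 0.51, 0.00676) were lower with PolyI:C. Cxcl10 (2.34 ± 0.41, 0.000254), Cxcl11 (3.87 ± 0.62, 9.09e-05) and Cxcl14 (2.31 ± 0.29, 4.71e-06) were higher. The other CXCR2 and CXCR3 ligands were not called there, at -0.54 ± 0.89 for Cxcl3, -2.15 ± 1.05 for Cxcl5 and 0.32 ± 0.93 for Cxcl9.

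Genes upstream of the chemokines were read from lists of named pathways, whose counts stand beside 39.7, 41.1 and 36.0% of all genes called with LPS plus interferon-γ, PolyI:C and CpG in wild type and 23.7, 8.55 and 14.3% with the CB2-/- label. Of 9 genes of NF-κB and mRNA decay, all 9 rose with LPS plus interferon-γ and all 9 with PolyI:C in wild type, with medians of 1.77 and 1.62, and 8 rose and 1 fell with CpG (1.02). The CB2-/- counts were 9, 6 and 8 that rose and none that fell, with medians of 1.85, 0.87 and 1.47. Tnfaip3, which limits NF-κB signalling, rose by 4.04 with PolyI:C in wild type and 1.14 in CB2-/- cells, and Nfkbiz, a nuclear co-regulator, by 4.52 and 3.51 with CpG. For PolyI:C 7 of the 9 were called with a lower log2 change in CB2-/- cells (13.9% of all genes) and none with a higher one (10.8%). The differences were -2.91 for Tnfaip3 and -2.89 for Nfkbiz. For LPS plus interferon-γ 3 had a lower (8.36% of all genes) and none a higher change. For CpG 1 had a lower and 3 a higher one (6.11% of all genes higher). Of 10 tested interferon pathway genes, 7 rose and 1 fell with LPS plus interferon-γ and with PolyI:C in wild type (medians 1.48 and 1.24), while 1 rose and 7 fell with CpG (-0.65). With the CB2-/- label 6 rose and 1 fell, 4 rose and none fell, and none rose and 2 fell (0.93, 0.51 and -0.13). Irf1 rose with LPS plus interferon-γ by 4.66 in wild type and 4.29 in CB2-/- cells, and Ifnb1, the gene of interferon-β, by 4.49 and 4.03. Irf7, an amplifier of type I interferon, rose with PolyI:C by 3.47 and 0.75, and that response differed by -2.72 (adjusted p = 3.31e-13). Over the 10 genes, 1 log2 change was higher and 3 were lower in CB2-/- cells with LPS plus interferon-γ. With PolyI:C 1 was higher and 5 were lower, and with CpG 6 were higher and 1 was lower. A higher change need not be a larger response, since with CpG 7 of the 10 fell in wild type and none rose in CB2-/- cells. These stand beside the same shares of all genes as the NF-κB counts. In unstimulated CB2-/- cells 5 of the 10 were higher than in series 2186 (6.25% of all genes) and 1 lower, with Irf7 higher by 2.19. Shares of all genes for larger LPS plus interferon-γ responses, smaller CpG responses and lower unstimulated levels in CB2-/- cells are not given here.

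Of 6 tested receptors, 3, 2 and 0 rose and 1, 1 and 3 fell in wild type with LPS plus interferon-γ, PolyI:C and CpG. In CB2-/- cells 3, 0 and 0 rose and 1, 0 and 1 fell. Over all genes, 39.7, 41.1 and 36.0% were called either way in wild type and 23.7, 8.55 and 14.3% with the CB2-/- label. The wild-type receptor counts with PolyI:C and CpG lie near those shares, which also stand beside the chemokine and protease counts below. Cxcr4, the receptor of Cxcl12, fell in wild type with log2 changes of -5.56, -5.97 and -7.92, and in CB2-/- cells of -3.83 with LPS plus interferon-γ and -3.42 with CpG. With PolyI:C its CB2-/- change of -0.61 was not called, and the responses differed by 5.36 (adjusted p = 1.57e-07). Cxcr3, the receptor of Cxcl9, Cxcl10 and Cxcl11, rose with LPS plus interferon-γ by 3.11 in wild type and 3.96 in CB2-/- cells. Of 4 tested further chemokines of the CXC and CX3C families, 2 rose and none fell with LPS plus interferon-γ in wild type, and none rose and 2 fell in CB2-/- cells, Ppbp (-4.60) and Pf4 (-3.53), both best known from platelets. Cxcl13, a B cell attractant, rose in wild type by 2.59, 3.02 and 3.93 and was not called in CB2-/- cells, with responses that differed for PolyI:C (-3.12) and CpG (-3.29). Of 2 tested shedding and trimming proteases, 1 rose and 1 fell with each stimulus in wild type and with PolyI:C and CpG in CB2-/- cells. With LPS plus interferon-γ in CB2-/- cells 0 rose and 1 fell. The one that fell was Adam10, which sheds CXCL16, with log2 changes of -1.89, -2.06 and -1.42 in wild type and -1.49, -0.84 and -1.24 in CB2-/- cells.

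Across the 9 group means of log2(normalised count + 1), which share libraries and controls, several members of 1 receptor group had like patterns. Pearson's r was 0.88 to 0.99 over the 3 pairs of CXCR3 ligands, highest for Cxcl10 and Cxcl11. Over the 6 pairs of CXCR2 ligands it was 0.35 (Cxcl3 and Cxcl5) to 0.97 (Cxcl1 and Cxcl2). Between the receptor groups it was 0.31 (Cxcl3 and Cxcl9) to 0.84 (Cxcl5 and Cxcl9), which overlapped with the range of the CXCR2 ligands. Cxcl16 had 0.88 with each CXCR3 ligand, and Cxcl5 and Cxcl14 had -0.91. The 3 other genes most like Cxcl10 were Olfr56 (0.992), Tmbim6 (0.991) and AC102815.1 (0.988). Those most like Cxcl1 were Cnot7 (0.952), Gm15922 (0.950) and Gm10634 (0.948), and those most like Cxcl16 were Gnl1 (0.971), Dcaf12 (0.967) and Slamf8 (0.965). These are descriptions over 9 groups, picked as the highest of all tested genes with a symbol.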

How the data were processed

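Microglial RNA was sequenced in 27 libraries as single-end 75 bp reads. Groups of 3 follow the labels, and replicates are numbered in record order. The labels give 2 library protocols and do not assign them to libraries. The submitters' processing notes name CASAVA 1.8, kallisto and DESeq2. The genome build is not given in the sources used here. Deposited values are normalised counts, which have no negative values and were entered as a signal. A second deposited table, which the authors had corrected for unstated batches and which was read as log2 from its values, was used for 1 alternative.

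Between 55.0 and 65.0% of a library's low values were whole multiples of its smallest step (tolerance 0.01), so that reads were not recovered and a count model could not be used. The fit in limma 3.58.1 (R 4.3.3) used log2(value + 1), genes reaching 10 in at least 3 libraries, 9 group means and eBayes with a variance trend; tests are two-sided and adjusted by Benjamini-Hochberg over all tested genes. Because 1 model held every library, groups share an estimate of spread. Where a symbol occurred more than once, the entry with the highest sum was used. Alternatives varied the pseudocount, the filter, the scaling, the variance model, the weights, which libraries were fitted and the table, and dropped single libraries. Among the 27 pairs of replicates no libraries were identical, and chi-square per degree of freedom was 5.48 to 582 over genes with at least 20 approximate reads. The code of the fit was run on simulated counts with the same dispersion for every gene and group. Replicates here were more uneven, so the simulation does not show how reliable the calls are. The 10 members, the gene lists and the alternatives were chosen with earlier results of these data known. Named genes are all members, at most 4 genes of a list, from those with the largest changes, and the 3 genes most like Cxcl1, Cxcl10 and Cxcl16. Gene positions were taken from GENCODE M21 (GRCm38), in which 23933 of the 23995 identifiers were found. Figures used matplotlib 3.10.9. The PolyI:C dose is not printed because its unit in the labels is unclear.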

Additional observations from a re-analysis of the deposited data

Results flagged for a closer look

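The response differed between CB2-/- and wild type, by the interaction contrast in limma, in 11 member results. With LPS plus interferon-γ the log2 difference was -2.58 for Cxcl2, -4.11 for Cxcl3, -4.46 for Cxcl10 and -3.52 for Cxcl11. With PolyI:C it was -2.90 for Cxcl2, -6.48 for Cxcl9, -6.18 for Cxcl10, -5.86 for Cxcl11 and 1.81 for Cxcl14. With CpG it was 3.22 for Cxcl1 and 0.93 for Cxcl16. In these comparisons the genotype and the number series cannot be told apart. Groups of 3 libraries are too small for the check of single outlying samples.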

How the results depend on the processing

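Of 170 member results 84 were called, and 67 of these were called under every alternative run. Over 3036 member values under alternatives, 2837 stayed on their side of the threshold, 131 newly passed it, 66 no longer did and 2 reversed. These include a rescaling by median of ratios, whose factor was 1.01 in every library. It could hardly move any change, so its unchanged calls carry no weight. The reversals were Cxcl16 in wild type given PolyI:C, at -0.39 under quantile scaling, and Cxcl14 between unstimulated CB2-/- and wild type, at 0.62 in the authors' batch-corrected table; the cause was not tested. The number of members called for CpG in wild type went from 7 to 2 with only the groups compared, to 4 with all 6 unstimulated wild-type libraries as 1 group, and to between 3 and 8 on leaving out each library. With only the groups compared, CB2-/- counts were 7 for PolyI:C, 7 for CpG, 9 for LPS plus interferon-γ against PolyI:C and 8 against CpG, and the unstimulated wild-type series gave 1. Array weights gave 7 for CpG in CB2-/- cells, 8 and 5 for the differences in the PolyI:C and CpG responses, 5 and 5 for the unstimulated genotypes and series, 4 for LPS plus interferon-γ against PolyI:C in wild type and 8 for LPS plus interferon-γ against CpG in CB2-/- cells. The batch-corrected table gave 7 and 7 for PolyI:C and CpG in CB2-/- cells, 8 for the PolyI:C difference, 6 and 0 for the unstimulated genotypes and series, 4 for wild-type LPS plus interferon-γ against PolyI:C and 7 for CB2-/- LPS plus interferon-γ against CpG. Removing the 3 wild-type replicates 1 gave 8 and 6 for the PolyI:C and CpG differences, 5 for the unstimulated series and 4 for wild-type LPS plus interferon-γ against PolyI:C. For the LPS plus interferon-γ difference, all 6 unstimulated wild-type libraries as 1 group gave 2, and for the unstimulated genotypes a filter of 50 and quantile scaling each gave 5. Leaving out each library gave 2 to 4 for the CpG difference. Many changes were smaller in the batch-corrected table, such as -2.65 for Cxcl10 in the LPS plus interferon-γ difference. Quantile scaling shifted the median of all genes by -0.11 (LPS plus interferon-γ, wild type), 0.14 (CpG, wild type), -0.12 (CpG difference), -0.28 (LPS plus interferon-γ against CpG, wild type) and -0.15 (PolyI:C against CpG, wild type). Where a group lies at or near 0, a log2 change depends on the pseudocount, and low counts limit Cxcl5, Cxcl12 and unstimulated Cxcl9 and Cxcl11. No paired analysis was possible because the replicate numbers were given in record order, and the labels do not say whether libraries of different groups share a culture.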
